A study of Mus musculus with 10 samples.

Results

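The genes described here are the receptors, inhibitors, feedback regulators and targets of Wnt signalling, 39 in all, measured in clones of mouse 3T3-L1 preadipocytes. The members were taken by symbol, and a member was measured where a probe set of the array was annotated to that symbol alone. Of the 39 members, 38 had such a probe set, out of 19937 genes in all, and none of the 38 had more than 1. Tcf7, which encodes a TCF transcription factor, had none in the annotation used here and was not analysed here. A test was run on the 35 members whose signal exceeded the 25th percentile of the array in at least 5 of 10 arrays, out of 16339 genes so tested. Lgr5, Sfrp4 and Frzb lay below that limit.

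3T3-L1 cells are embryonic mouse fibroblasts that become fat cells when treated with insulin, dexamethasone and IBMX. Clones were grown from single colonies, kept below confluence and classed by the triglyceride they stored after that treatment, 5 lines as Low and 5 as High. RNA came from untreated, proliferating cells in serum-containing medium, so every level below precedes differentiation. The Low clones are named 1E7, 2D7, 2F1, 4D11 and 4H4 (replicates 1 to 5 in that order). The High clones are named 3F4, 4D2, 4E3, 5C4 and 5D4, numbered likewise. Each line is 1 clone on 1 array, and no genotype, agent or age separates the classes beyond the clone itself.

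Secreted Wnt proteins bind Frizzled receptors together with the co-receptors LRP5 and LRP6, which stops the destruction of beta-catenin and lets it act with TCF and LEF factors on target genes. A separate branch runs through ROR1, ROR2 and RYK and does not need beta-catenin. Cells restrain the pathway with secreted inhibitors such as the SFRP, DKK and WIF proteins and with feedback genes such as Axin2, which are themselves targets. Wnt signalling through beta-catenin is known to hold preadipocytes in an undifferentiated state.

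All values are log2 intensities after RMA, a method that corrects background, aligns the arrays and summarises probes, so a difference of 1 is a doubling on that scale. Probe sets differ in brightness for reasons unrelated to transcript number, so differences are taken between lines within a gene. Levels set against the array median or 25th percentile are only a rough guide. The 25th percentile lay between 6.38 and 6.47 and the median between 7.74 and 7.84 in all arrays, and the mean correlation of an array with the others ran from 0.987 to 0.993. The lines expressed 10 of 10 fibroblast and preadipocyte genes above the array median, with list means of 12.57 to 12.77 in Low and 12.66 to 12.87 in High lines. Of 7 mature adipocyte genes measured 4 passed the intensity limit and 1 had a mean above the array median. Their list means were 6.90 to 7.02 in Low and 6.86 to 7.18 in High lines. The lowest of them, the adipocyte hormone gene Adipoq, lay between 5.71 and 6.08 in all lines, and the highest, Plin1, between 7.86 and 8.36. Genes of proliferating cells had list means of 12.47 to 12.76 in Low and 12.46 to 12.70 in High lines.

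The first question was whether these genes differed between High and Low lines before differentiation. In limma, 0 of 35 tested members passed an adjusted p of 0.05 over all genes, against 0.00612% of all genes tested. At an unadjusted p under 0.05 there were 4 members, or 11.4%, against a background of 7.95%. These 4 were the secreted inhibitor gene Sfrp2 and the transcription factor gene Tcf7l1, higher in High lines, and the receptor gene Ror2 and the transcription factor gene Lef1, lower in High lines. With lines blocked by the first digit of their clone name, a fit that rests on the 4 lines whose names begin with 4, none of these 4 kept an unadjusted limma p under 0.05, and the 3 members then under it were Lgr4, Apcdd1 and Myc. The background was 3.16% for higher and 4.79% for lower genes, and 2 of 35 members lay on each side. The classes overlapped in 35 of 35 tested members. Over all tested genes 1.57% had classes that did not overlap, so few that 35 members cannot show a contrast. Over the 35 members 23 differences were positive (65.7%) and 12 negative, with a median of 0.037. Over all tested genes 58.0% were positive, with a median of 0.021.

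**Figure D1:**
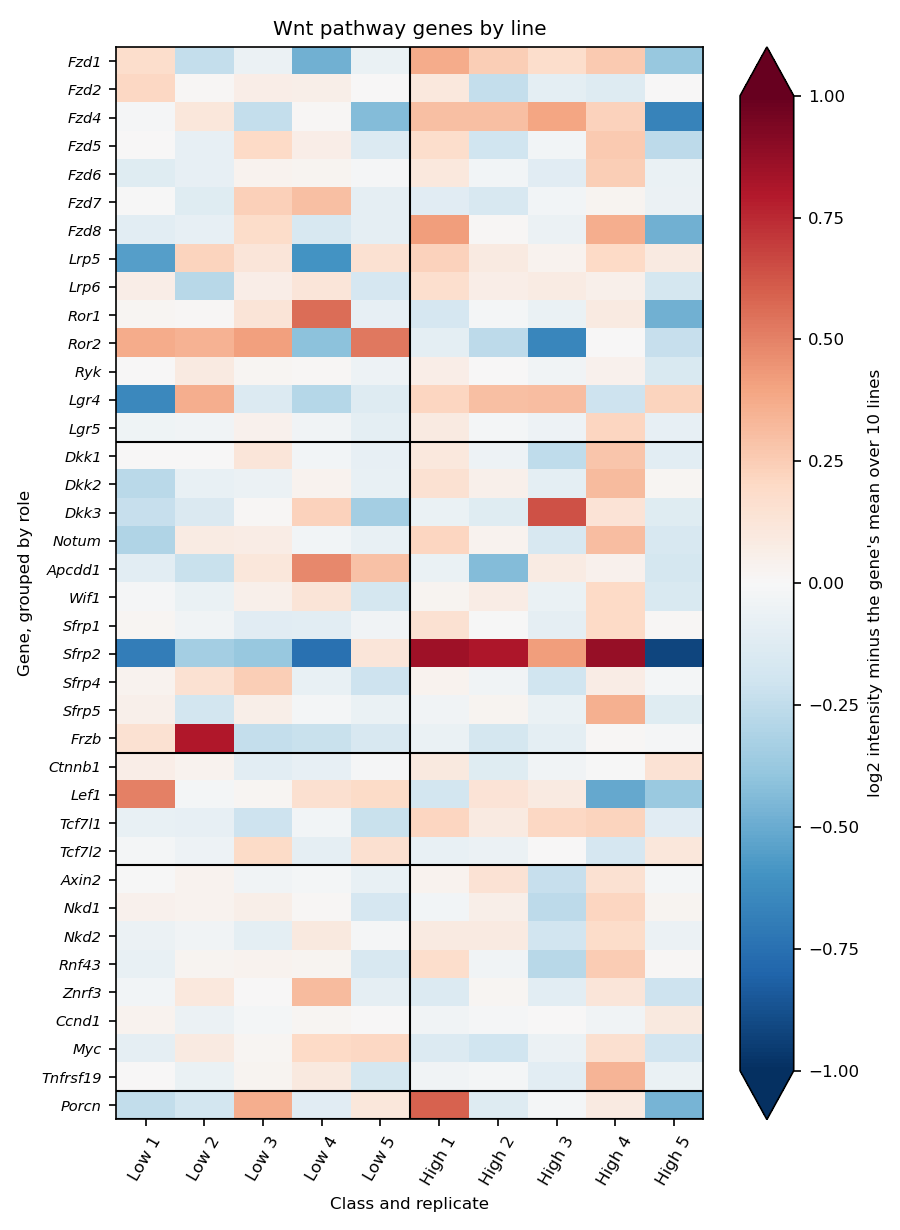
Log2 intensity of each of the 38 measured members minus its mean over the 10 lines, with lines in columns by class and replicate and genes in rows grouped by role (receptors, inhibitors, beta-catenin and TCF/LEF factors, feedback and target genes, Porcn). Red is above and blue below the gene's mean, and the scale ends at 1 in either direction. Sfrp2 shows the widest swings, with High replicates 1 to 4 red and High replicate 5 blue, while the feedback and target genes are pale in most lines.

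**Figure D2:**
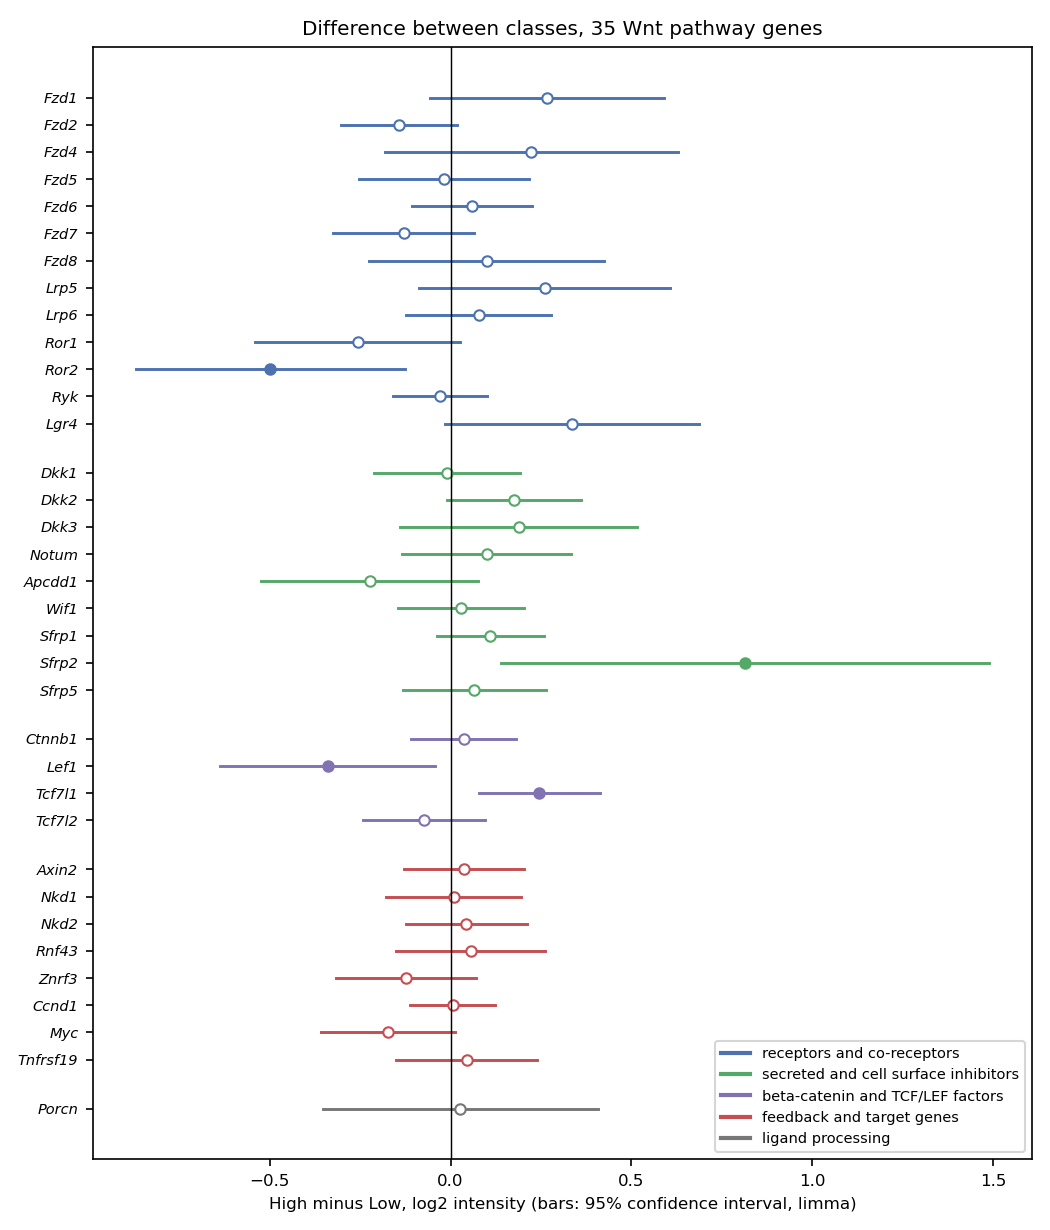
Difference between High and Low class means in log2 intensity for the 35 tested members, with the 95% confidence interval from limma as a bar and the role as colour. Filled circles mark the 4 members with an unadjusted p under 0.05 (Ror2, Sfrp2, Lef1 and Tcf7l1), and the interval includes 0 for the other 31.

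Among the 13 tested receptors and co-receptors, Ror2 had the largest difference between classes. Ror2 encodes a receptor tyrosine kinase that binds Wnt5a and signals apart from beta-catenin. Its signal in Low replicates 1 to 5 was 9.13, 9.11, 9.17, 8.35 and 9.28. In High replicates 1 to 5 it was 8.66, 8.49, 8.11, 8.76 and 8.53. All 5 High lines lay below 4 of the 5 Low lines, and Low replicate 4 lay among the High lines. The class means were 9.01 ± 0.37 and 8.51 ± 0.25 (SD, n = 5 each), a difference of -0.50 (SE 0.17, 95% confidence interval -0.87 to -0.13). High lines were thus 1.41-fold lower, with a limma p of 0.0129 and an adjusted p of 0.473. Without Low replicate 4 the difference was -0.66 with a limma adjusted p of 0.265, and with each line left out in turn the unadjusted limma p ran from 0.000146 to 0.0362. With the block by clone name it was 0.0971.

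The other receptors of the branch that works without beta-catenin did not pass either threshold. Ror1, which encodes the closest relative of ROR2, ran from 9.97 to 10.61 in Low lines (median 10.07) and from 9.57 to 10.13 in High lines (median 9.98). Its difference of -0.26 had a limma p of 0.0718, and Low replicate 4, the Low line with the lowest Ror2, had the highest Ror1. Ryk, which encodes a pseudokinase receptor for Wnt ligands, ran from 12.23 to 12.47 over all lines and differed by -0.03 (95% confidence interval -0.16 to 0.10).

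Of the Frizzled genes, which encode the seven-pass receptors for Wnt ligands, 7 of the members were tested and 0 had an unadjusted p under 0.05. In Fzd1 and Fzd4 High replicate 5 stood below the other High lines. Fzd1 ran from 10.65 to 11.31 in Low lines, and in High replicates 1 to 5 it was 11.50, 11.38, 11.30, 11.39 and 10.75. Fzd4 ran from 7.54 to 8.09 in Low lines, and in High replicates 1 to 5 it was 8.28, 8.28, 8.37, 8.21 and 7.31. For Fzd4, 4 High lines lay above every Low line and High replicate 5 lay below every Low line. The differences were 0.27 for Fzd1 (95% confidence interval -0.06 to 0.59) and 0.22 for Fzd4 (95% confidence interval -0.18 to 0.63). Without High replicate 5, a line picked out from these same values, they were 0.40 and 0.42, with limma adjusted p-values of 0.300 and 0.238. With each line left out in turn Fzd1 ran from 0.18 to 0.40, at an unadjusted limma p of at most 0.238. Fzd4 then ran from 0.14 to 0.42, at an unadjusted limma p of at most 0.474.

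The remaining Frizzled genes differed less. Fzd2 differed by -0.14, with 11.47 ± 0.08 among Low and 11.33 ± 0.13 among High lines (SD, n = 5). Fzd7 differed by -0.13, Fzd8 by 0.10, Fzd6 by 0.06 and Fzd5 by -0.02, the last of which turned positive with arrays centred on their medians. Each of these intervals included 0, and the classes overlapped in each.

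LRP5 and LRP6 are the single-pass co-receptors that Wnt ligands join to Frizzled. Lrp6 in Low replicates 1 to 5 was 11.67, 11.33, 11.67, 11.72 and 11.43. In High replicates 1 to 5 it was 11.78, 11.67, 11.69, 11.66 and 11.43. The classes overlapped almost fully, and the difference was 0.08 (95% confidence interval -0.12 to 0.28, limma adjusted p = 0.84). Lrp5 was picked out after its values were seen, because 2 lines stood well below the rest. Low replicates 1 to 5 measured 9.98, 10.75, 10.65, 9.93 and 10.68 and the High lines 10.57 to 10.76. Low replicates 1 and 4 thus lay below all other lines, and the other 3 Low lines lay within the High range. The class difference of 0.26 had a limma p of 0.128.

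Lgr4 encodes a receptor for R-spondins, the secreted proteins that strengthen Wnt signals by removing the ubiquitin ligases RNF43 and ZNRF3. It ran from 11.13 to 12.14 in Low lines (median 11.64) and from 11.57 to 12.08 in High lines (median 12.00). Low replicate 2 was the highest line of all and Low replicate 1 the lowest. The difference of 0.33 (95% confidence interval -0.02 to 0.69) had a limma p of 0.0598 and an adjusted p of 0.648. With the block by clone name the difference was 0.51, at an unadjusted limma p under 0.05. Lgr5, a related receptor gene known as a stem cell marker, exceeded the 25th percentile in 3 of 10 arrays. It measured 6.39 ± 0.05 among Low and 6.46 ± 0.12 among High lines (SD, n = 5; exact permutation p = 0.310). Over the 13 tested receptors 7 differences were positive and 6 negative, with a median of 0.059. Porcn, which encodes the acyltransferase that attaches the lipid Wnt ligands need for secretion, ran from 10.06 to 10.67 in Low and from 9.84 to 10.89 in High lines. It differed by 0.03 (95% confidence interval -0.35 to 0.41).

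Sfrp2 had the largest difference and the widest range of all tested members. It encodes a secreted Frizzled-related protein that can bind Wnt ligands outside the cell. In Low replicates 1 to 5 it was 10.67, 11.02, 10.99, 10.62 and 11.48. In High replicates 1 to 5 it was 12.21, 12.17, 11.78, 12.24 and 10.45. High replicates 1 to 4 lay above every Low line, and High replicate 5 was the lowest line of all. The class means were 10.96 ± 0.35 and 11.77 ± 0.76 (SD, n = 5 each), a difference of 0.81 (SE 0.31, 95% confidence interval 0.14 to 1.49). That is 1.76-fold, at a limma p of 0.0221 and an adjusted p of 0.525. Its range over the 10 lines was 1.79, wider than in 98.8% of tested genes.

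Without High replicate 5 the Sfrp2 difference was 1.15 (SE 0.17), or 2.21-fold, and passed with a limma adjusted p of 0.0280. The other 4 High lines then had a mean of 12.10 ± 0.21 (SD, n = 4). With other lines left out the limma adjusted p was not under the threshold, and it reached 0.867. The unadjusted limma p was above 0.05 in 4 of the 10 fits that leave out a line, at most 0.0610 without High replicate 4, and it was 0.108 with the block by clone name.

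**Figure D3:**
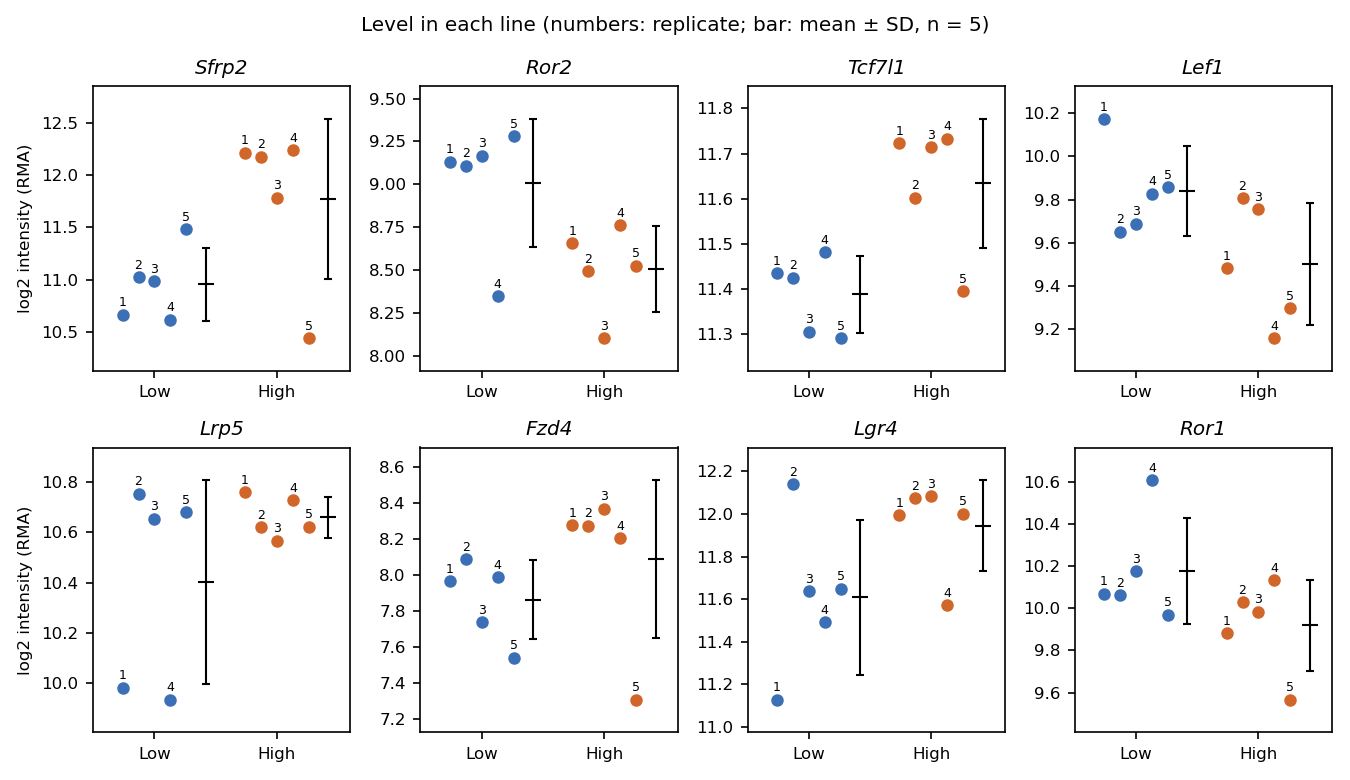
Log2 intensity of 8 members in each line, with Low lines in blue and High lines in orange, replicate numbers above the points, and the class mean with its SD (n = 5) as a bar. Each panel has its own vertical axis, which does not start at 0. High replicate 5 sits apart from the other High lines for Sfrp2 and Fzd4, Low replicate 4 sits with the High lines for Ror2, and Low replicates 1 and 4 sit below all others for Lrp5.

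The other secreted and cell surface inhibitors were closer between classes. SFRP1, like SFRP2, binds Wnt ligands. Sfrp1 in Low replicates 1 to 5 was 7.01, 6.96, 6.88, 6.88 and 6.95, and in High replicates 1 to 5 it was 7.14, 6.99, 6.90, 7.19 and 7.004. It differed by 0.11 (95% confidence interval -0.04 to 0.26), with 2 High lines above all Low lines. Sfrp5, another gene of the family, differed by 0.07. Wif1, which encodes another protein that binds Wnt ligands, differed by 0.03, which turned negative with quantile normalization repeated. Sfrp4 lay below the 25th percentile in all arrays, at 6.15 ± 0.18 among Low and 6.09 ± 0.11 among High lines (SD, n = 5; exact permutation p = 0.556). Frzb, which encodes a further Frizzled-related protein, exceeded that percentile in 1 array, Low replicate 2, at 6.88. It ran from 5.84 to 6.23 in the other 9 lines (exact permutation p for the classes = 0.690).

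The Dickkopf genes encode secreted proteins, of which DKK1 and DKK2 bind the LRP co-receptors. Dkk1 differed by -0.01 (95% confidence interval -0.21 to 0.19; positive with arrays centred on their medians) and Dkk2 by 0.17 (95% confidence interval -0.01 to 0.36). Dkk3 ran from 7.15 to 7.72 in Low lines and from 7.37 to 8.12 in High lines, where High replicate 3 was the highest and the next highest High line measured 7.62. Notum encodes an enzyme that removes the lipid from Wnt ligands, and it differed by 0.10. Apcdd1, which encodes a cell surface inhibitor and is a known target of the pathway, ran from 9.93 to 10.64 in Low and from 9.72 to 10.23 in High lines. Its difference was -0.22 (95% confidence interval -0.52 to 0.08). Of 9 tested inhibitors 7 differences were positive (77.8%) and 2 negative, with a median of 0.099. Over all tested genes 58.0% were positive. Of the 9 inhibitors 7 had a mean below the array median, and 79.7% of all tested genes below it were positive.

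The TCF and LEF factors bind DNA and carry beta-catenin to target genes, and 2 of the 3 tested had an unadjusted p under 0.05, in opposite directions, where 7.95% of all tested genes did. Tcf7l1 encodes TCF3, a member that acts mostly as a repressor. In Low replicates 1 to 5 it was 11.44, 11.42, 11.31, 11.48 and 11.29. In High replicates 1 to 5 it was 11.72, 11.60, 11.71, 11.73 and 11.40. High replicates 1 to 4 lay above every Low line, and High replicate 5 lay within the Low range. The class means were 11.39 ± 0.08 and 11.63 ± 0.14 (SD, n = 5 each), a difference of 0.25 (SE 0.08, 95% confidence interval 0.08 to 0.41). That is 1.19-fold, at a limma p of 0.00785 and an adjusted p of 0.425. With each line left out in turn the unadjusted limma p ran from 0.000777 to 0.0221, and with the block by clone name it was 0.0945. Tcf7l1 lies on chromosome 6, where 81 of 827 tested genes were higher and 6 lower at an unadjusted p under 0.05, and its 50 nearest tested genes had a median difference of 0.080. The part of that regional shift in the result was not tested.

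Lef1, which encodes an activating partner of beta-catenin and is itself a target of the pathway in many tissues, went the other way. In Low replicates 1 to 5 it was 10.17, 9.65, 9.69, 9.83 and 9.86. In High replicates 1 to 5 it was 9.48, 9.81, 9.76, 9.16 and 9.30. High replicates 1, 4 and 5 lay below every Low line, while High replicates 2 and 3 lay within the Low range. The class means were 9.84 ± 0.21 and 9.50 ± 0.28 (SD, n = 5 each), a difference of -0.34 (SE 0.14, 95% confidence interval -0.64 to -0.04). High lines were thus 1.27-fold lower, with a limma p of 0.0286 and an adjusted p of 0.563. Without Low replicate 1, High replicate 4 or High replicate 5 the unadjusted limma p was above 0.05, at most 0.0772, and with the block by clone name the difference was -0.06 with a limma p of 0.583.

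Tcf7l2 and beta-catenin itself did not separate the classes. Tcf7l2, which encodes TCF4, in Low replicates 1 to 5 was 11.57, 11.54, 11.78, 11.50 and 11.75, and in High replicates 1 to 5 it was 11.52, 11.54, 11.60, 11.42 and 11.71. It differed by -0.07 (95% confidence interval -0.24 to 0.09). Ctnnb1, the gene of beta-catenin, in Low replicates 1 to 5 was 12.83, 12.80, 12.66, 12.69 and 12.76, and in High replicates 1 to 5 it was 12.87, 12.65, 12.73, 12.76 and 12.91. It differed by 0.04 (95% confidence interval -0.11 to 0.18), and its range of 0.26 was wider than in only 10.7% of tested genes. Beta-catenin is controlled mainly at the level of the protein, which arrays do not measure.

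The promoters of the 4 members with the smallest p are shown because they are the members set out by line above. Each is the 250 bases before the transcription start, from RefSeq, build GRCm38.p6, read 5′ to 3′ on the strand of the gene. Capitals mark CTTTG or its reverse complement CAAAG, the core of the sequence that TCF and LEF factors recognise.
Tcf7l1, chr6:72789046-72789295, minus strand: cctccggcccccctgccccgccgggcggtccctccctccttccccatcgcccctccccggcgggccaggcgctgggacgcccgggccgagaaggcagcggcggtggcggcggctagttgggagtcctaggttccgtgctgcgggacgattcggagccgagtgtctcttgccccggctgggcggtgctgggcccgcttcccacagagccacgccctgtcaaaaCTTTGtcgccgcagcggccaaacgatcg
Sfrp2, chr3:83766071-83766320, plus strand: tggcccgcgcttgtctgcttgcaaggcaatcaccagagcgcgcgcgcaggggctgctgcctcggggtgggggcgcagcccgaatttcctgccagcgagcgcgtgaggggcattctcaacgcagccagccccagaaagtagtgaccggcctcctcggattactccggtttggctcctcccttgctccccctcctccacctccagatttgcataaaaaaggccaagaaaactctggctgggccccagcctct
Ror2, chr13:53286125-53286374, minus strand: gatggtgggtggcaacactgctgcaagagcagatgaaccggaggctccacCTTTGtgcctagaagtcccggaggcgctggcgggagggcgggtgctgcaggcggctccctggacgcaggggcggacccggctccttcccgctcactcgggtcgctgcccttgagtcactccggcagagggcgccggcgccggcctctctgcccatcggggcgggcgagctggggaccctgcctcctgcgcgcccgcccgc
Lef1, chr3:131110047-131110296, plus strand, the first of 4 starts listed for this gene: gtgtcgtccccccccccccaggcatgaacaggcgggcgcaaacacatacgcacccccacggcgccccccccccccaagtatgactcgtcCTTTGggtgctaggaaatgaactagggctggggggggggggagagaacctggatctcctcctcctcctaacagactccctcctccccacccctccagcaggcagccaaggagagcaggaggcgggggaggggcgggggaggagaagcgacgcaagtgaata
The core occurs once each in the Tcf7l1, Ror2 and Lef1 sequences shown, at positions -28, -200 and -161 from the start. These letters are not in the Sfrp2 window. At the later Lef1 starts, not shown, the core occurs 2, 1 and 3 times. GC made up 73.6% of the Tcf7l1, 63.6% of the Sfrp2, 73.2% of the Ror2 and 66.4% of the Lef1 sequence, against a median of 52.4% over 32851 promoters. The longer form CTTTGAT or ATCAAAG, searched on both strands in windows of 250 bases before to 50 after the start, occurred in 1 of the 24 members that the promoter table lists (Tnfrsf19), and in 4.29% of 27025 genes. The core, which the longer form contains and which was searched after that result, occurred in 12 of the 24 members and in 57.4% of genes. A match describes letters in the window and is no evidence of binding.

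The genes grouped here as feedback and target genes, through which beta-catenin signalling is commonly read, were close between the classes. Of 8 tested, 0 had an unadjusted p under 0.05. Of their differences 6 were positive and 2 negative, and the median was 0.023 (-0.059 with the block by clone name). Of all tested genes 58.0% were positive, and of those with a mean below the array median 79.7%. Axin2, Nkd1, Nkd2 and Tnfrsf19 turned negative with quantile normalization repeated. The 8 confidence intervals together ran from -0.36 to 0.26, so that a change of over 1.28-fold in either direction lay outside each of them on the RMA scale. Lef1 and Apcdd1, described above as targets too, were grouped under other roles and are not among these 8. They differed by -0.34 and -0.22, and their 95% confidence intervals reached down to -0.64 and -0.52, beyond the 1.28-fold limit. Lef1 is also among the members that passed the unadjusted threshold. Axin2, 1 of the 8 and a scaffold of the complex that destroys beta-catenin, is among the most widely used readouts of this signalling. In Low replicates 1 to 5 it was 7.67, 7.71, 7.63, 7.65 and 7.59. In High replicates 1 to 5 it was 7.70, 7.81, 7.44, 7.82 and 7.65. The High lines spanned the whole Low range, and the difference was 0.04 (SE 0.08, 95% confidence interval -0.13 to 0.20, limma adjusted p = 0.901).

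Nkd1 and Nkd2 encode inhibitors that act on the signalling protein Dishevelled. Nkd1 was 8.33 ± 0.09 among Low and 8.34 ± 0.17 among High lines (SD, n = 5), with a difference of 0.01 (95% confidence interval -0.18 to 0.20). Its 50 nearest tested genes, on chromosome 8, had a median difference of -0.098, and those of Sfrp1 on the same chromosome one of -0.047. Nkd2 differed by 0.04. Rnf43 and Znrf3 encode the ubiquitin ligases that remove Frizzled from the cell surface. Rnf43 differed by 0.06 and Znrf3 by -0.12 (95% confidence interval -0.32 to 0.07). Tnfrsf19, a receptor gene of the tumour necrosis factor family that responds to Wnt in some tissues, differed by 0.04.

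Ccnd1 and Myc, which drive the cell cycle and answer to many signals besides Wnt, were measured in cells that were all dividing. Ccnd1 had the narrowest range of the tested members, 0.16, and measured 13.42 ± 0.04 among Low and 13.43 ± 0.06 among High lines (SD, n = 5). Its difference was 0.01 (95% confidence interval -0.11 to 0.12). Myc ran from 12.29 to 12.59 in Low lines and from 12.18 to 12.54 in High lines. Its difference of -0.17 (95% confidence interval -0.36 to 0.01) had a limma p of 0.0658 and an adjusted p of 0.654.

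Many members were dim, and dim genes as a whole shifted between lines, most in High replicate 4. Of the 35 tested members 12 had a mean below the array median, Axin2, Nkd2, Rnf43, Tnfrsf19, Fzd6 and 7 inhibitors among them. Of these 12, 11 were highest in High replicate 4, and the like share of all dim genes was not computed. In that line the median of the 12, measured from each gene's mean over the lines, was 0.25, and over all 5046 dim genes it was 0.20. In the other lines the median over all dim genes ran from -0.092 in High replicate 3 to 0.050 in High replicate 1. Of the 12 dim members 11 differences were positive, with a median of 0.057, and over the dim genes 79.7% were positive, with a median of 0.054. For the 23 brighter members 12 were positive and 11 negative. The part of this shift in the small positive differences of dim members was not tested. Without High replicate 4 the median difference of the feedback and target genes was -0.019 and that of the inhibitors 0.034. Both lists hold brighter genes as well as dim ones.

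Whether target genes varied together from line to line was examined with Axin2 as the reference, over 10 lines and 11 genes. Nkd1 (Pearson r = 0.875, permutation p = 0.00353, adjusted p = 0.0277; Spearman rho = 0.721, permutation p = 0.0234, adjusted p = 0.210) was the closest. Nkd2 had r = 0.808 (permutation p = 0.00504, adjusted p = 0.0277) and rho = 0.612 (permutation p = 0.0661, adjusted p = 0.210). Rnf43 had r = 0.765 (permutation p = 0.0124, adjusted p = 0.0455) and rho = 0.539 (permutation p = 0.115, adjusted p = 0.210). For the other 8 genes the adjusted permutation p of r ran from 0.0711 to 0.867. Their r was positive for Dkk1 (0.711), Notum (0.591), Tnfrsf19 (0.585) and Znrf3 (0.329). It was negative for Apcdd1 (-0.457), Lef1 (-0.340), Ccnd1 (-0.301) and Myc (-0.063), so the target genes did not all vary in 1 direction with Axin2. Without High replicates 3 and 4, the lines farthest from the Axin2 median, r was 0.555 for Nkd1, 0.478 for Nkd2 and 0.260 for Rnf43. Leaving out both ends of the Axin2 levels also narrows their range, which by itself lowers r. High replicates 3 and 4 were also the lines with the lowest and the highest median over all dim genes, and the median r of dim genes with Axin2 was 0.525, against -0.053 for brighter genes, among them Nkd1. Of all tested genes 16.2% had r above 0.6 with Axin2. The labels name no batch within which these relations could be given again.

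**Figure D4:**
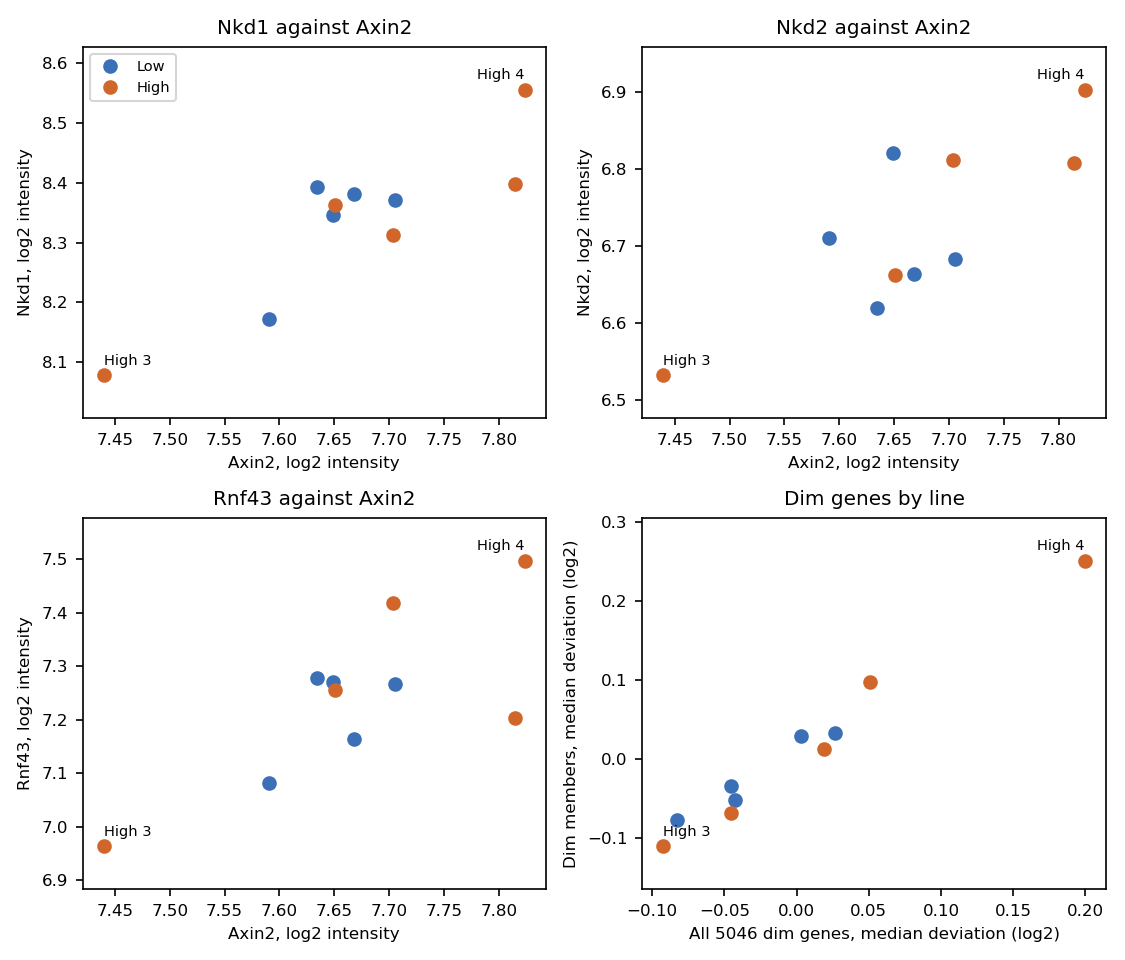
Levels of Nkd1, Nkd2 and Rnf43 against Axin2 in log2 intensity over 10 lines, and, in the last panel, the median deviation of the 12 dim members against that of all dim genes, each measured from the gene's mean over the lines. Blue points are Low and orange points High lines, and no axis starts at 0. High replicates 3 and 4 sit at opposite ends of each panel.

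Of the genes of the pathway outside the 39, 0 of 23 ligands and R-spondins and 0 of 51 other components passed the adjusted threshold in limma. At an unadjusted p under 0.05, 2 of the 23 were lower and 0 higher, and of the 51 components 3 were higher and 2 lower. These are 8.70% and 9.80% of the lists, near the 7.95% of all tested genes, and the classes did not overlap in 1 and 2 genes of the lists, against 1.57% of all tested genes. Wnt5a, a ligand of ROR2, ran from 10.29 to 10.75 in Low and from 9.90 to 10.25 in High lines, which did not overlap, and its limma adjusted p was 0.277. Rspo2, a ligand of LGR4, differed by -0.60. Tle4 and Tle2 encode co-repressors that bind TCF factors where beta-catenin is absent, and they lay on opposite sides. Tle4 measured 9.66 ± 0.13 among Low and 9.19 ± 0.19 among High lines (SD, n = 5), with no overlap (limma adjusted p = 0.255), and Tle2 differed by 0.34. Prickle1, of the planar polarity branch, measured 8.40 ± 0.09 among Low and 8.84 ± 0.21 among High lines (SD, n = 5), again with no overlap (limma adjusted p = 0.272). Daam1, of the same branch, differed by -0.38, and Bcl9l, which encodes a co-activator of beta-catenin, by 0.19. Daam1 lies where the 50 nearest tested genes had a median difference of -0.17.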

How the data were processed

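Total RNA of 10 clonal lines was turned into biotin-labelled sense-strand cDNA for 1 array a line, per the labels' protocols. The deposited values are log2 intensities, 1 per array and probe set, and the submitters' processing notes name RMA without a version. RMA makes the distributions of the arrays alike, so it hides a shift common to most genes. For its settings, the genome build and array batches, the labels give nothing. Of 34760 probe sets, 21640 carried 1 gene symbol in the platform annotation used here, and for a gene with several the brightest was kept. Genes had to exceed the 25th percentile of the array in at least 5 arrays.

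The classes were compared by limma 3.58.1 in R 4.3.3 (lmFit and eBayes, two-sided), with Benjamini-Hochberg adjustment over 16339 genes, also where members are quoted, and a threshold of 0.05. Members below the limit had a two-sided exact permutation test over 252 assignments, whose smallest p is 0.00794. Relations had 100000 permutations. All 39 members are accounted for. Values of every line are given for members with an unadjusted p under 0.05, classes that do not overlap or a range of at least 2, and for Axin2, Ctnnb1, Tcf7l1, Tcf7l2, Lrp6 and Sfrp1. Of other pathway genes, those with an unadjusted p under 0.05 are named, up to 4 in each direction. Other values were picked out after they were seen. The members and lists were chosen with earlier results of these data known. Precision is set by the number of lines, since arrays give no read depth. Nothing says how cultures of a clone were replicated, so p-values measure the spread between clones and arrays together. Alternatives covered the filter, probe sets, normalization, variance model, array weights, a block by first digit of clone names, and each line left out.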

Additional observations from a re-analysis of the deposited data

Results flagged for a closer look

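Of 76 sets of 5 lines (38 members in 2 classes), 9 had 1 line far from the remaining 4. Far meant a gap to the next line above 0.71 of the range of the set. About 3.8 such sets would be expected if the values within each set were normally distributed, which was not tested. All genes share the same 10 arrays, so the sets were not independent. The share over all tested genes was not computed, so no excess can be read from the count. High replicate 5 was far from the other High lines for 4 genes. It was lowest for Sfrp2 at 10.45, against 11.78 to 12.24, for Fzd4 at 7.31, against 8.21 to 8.37, and for Fzd1 at 10.75, against 11.30 to 11.50. It was highest for Ccnd1 at 13.52, against 13.39 to 13.43. High replicate 4 was lowest of its class for Lgr4 at 11.57, against 11.99 to 12.08, and highest for Tnfrsf19 at 7.87, against 7.43 to 7.51. Among Low lines, replicate 4 was lowest for Ror2 at 8.35, against 9.11 to 9.28, replicate 3 was highest for Fzd8 at 9.68, against 9.33 to 9.41, and replicate 5 was lowest for Nkd1 at 8.17, against 8.35 to 8.39.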

How the results depend on the processing

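No paired analysis was possible because the labels give clone names and no replicate numbers that the classes share. Of 618 member values under the alternatives, 577 kept their direction and their side of the threshold. Of the rest, 1 passed it (Sfrp2 without High replicate 5) and 40 turned sign. Of 35 tested members, 19 kept their sign under every alternative run. As reported the smallest limma adjusted p of a member was 0.425, far from the threshold, so its side was likely to stay. The filter, probe set and variance settings left a member's difference unchanged. The number of members past the threshold was 0 under all alternatives other than leaving out a line, where it ran from 0 to 1. Members at an unadjusted p under 0.05 went from 4 to between 3 and 7 with a line left out, 7 without Low replicate 2. Genes past the threshold over all genes went from 1 to 2 with arrays centred on their medians, 3 with array weights and 0 with lines blocked by the first digit of their clone name, and ran from 1 to 19 with a line left out, 19 without High replicate 5. With the block 676 genes had an unadjusted p under 0.05. With the stricter filter the median of the inhibitors was 0.30 in place of 0.099, the midpoint of Sfrp2 and Apcdd1, the 2 that it leaves, which lie on opposite sides. The block moved Fzd1 to 0.49, Fzd4 to 0.56, Lgr4 to 0.51, Apcdd1 to -0.56 and Myc to -0.34, and the cause was not tested.

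Some values turned sign, among them Dkk2 from 0.17, Frzb from -0.14 and Notum from 0.099. With the block the values that turned were Fzd6 -0.077, Ryk 0.0021, Dkk2 -0.0066, Notum -0.0088, Ctnnb1 -0.031, Nkd1 -0.021, Nkd2 -0.095, Rnf43 -0.093, Ccnd1 -0.018, Tnfrsf19 -0.026, Porcn -0.077. With repeated quantile normalization they were Wif1 -0.018, Axin2 -0.0082, Nkd1 -0.0056, Nkd2 -0.0012, Tnfrsf19 -0.00036, with median centring Fzd5 0.0035, Dkk1 0.013, and with array weights Nkd1 -0.016. With 1 line left out, the differences that turned in some fit ran over these ranges: Fzd5 -0.087 to 0.045, Ryk -0.050 to 0.0030, Dkk1 -0.081 to 0.052, Wif1 -0.017 to 0.070, Sfrp5 -0.015 to 0.10, Nkd1 -0.045 to 0.074, Rnf43 -0.0021 to 0.13, Ccnd1 -0.018 to 0.016, Tnfrsf19 -0.035 to 0.075, Porcn -0.12 to 0.15, Frzb -0.21 to 0.049. With 1 line left out the median of the feedback and target genes ran from -0.019 to 0.075, that of the TCF/LEF group from -0.053 to 0.00081, that of the receptors from 0.0049 to 0.083 and that of the inhibitors from 0.034 to 0.12. The median of the feedback and target genes was -0.059 with the block, -0.058 with the stricter filter and -0.0034 with repeated quantile normalization, and that of the TCF/LEF group was 0.0039 with median centring. Signal near the 25th percentile limits what can be seen of dim members, since RMA understates changes there.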

Other observations

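High replicate 5 was the lowest High line for 14 of the 35 tested members (40%), and it was so for 23.3% of all tested genes. High replicate 4 was the highest High line for 20 members (57.1%) and for 37.7% of all tested genes. Among Low lines, replicate 5 was lowest for 14 members (40%) and for 24.4% of all tested genes. No cause was tested for these counts.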
